A study of Homo sapiens with 6 samples.

Results

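MET and 9 other receptor tyrosine kinase genes were followed in MDA-MB-231 cells, an established human triple-negative breast cancer line, after knockdown of NRDE2, a nuclear protein of RNA metabolism. The 10 genes were taken from the deposited table by symbol (MET, AXL, EGFR, ERBB2, ERBB3, EPHA2, PDGFRB, IGF1R, INSR and FGFR1), and all 10 were found among its 25365 rows. They were listed as receptors relevant to basal breast cancer. MET was on the list because its rise was among the largest in this same comparison, so the changes of the 10 genes are given as descriptions, with no p-value. Where the text says that one of the 10 was called, this too is a description and not a test. The other genes of the pathway are tested.

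Of the 6 libraries, 3 came from cells that received 20 nM of a negative control siRNA (si-Control, Ambion AM4611) and 3 from cells that received 20 nM of a single siRNA against NRDE2 (si-NRDE2-2, Ambion s30064), with RNA taken after 48 h. Both groups were transfected with the same reagent, lipofectamine RNAiMAX. All 6 libraries are of the same line, and poly(A) RNA was sequenced with a stranded kit. The labels do not state that replicates are separate cultures, so the p-values below measure only a spread between libraries that may be technical. Values of single libraries are given in the order of replicates 1, 2 and 3, and the si-NRDE2-2 libraries are also called knockdown libraries.

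Receptor tyrosine kinases are membrane proteins that bind a growth factor outside the cell, pair up and phosphorylate each other inside it. The phosphorylated tails recruit adaptors such as GRB2 and GAB1, which pass the signal to the RAS-ERK and PI3K-AKT pathways, while phosphatases, ubiquitin ligases and inhibitory proteins shut the receptors down. MET is the receptor for hepatocyte growth factor and is known for driving cell motility and invasion. AXL and EGFR are typical receptors of basal-like and mesenchymal breast cancer cells, whereas ERBB2 (HER2) is not amplified in triple-negative tumours.

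Short sequences in the MET mRNA are shown first, because an account of MET depends on which of its annotated transcripts is read. The short sequences GACGTA and GACAGTA and GACTGTA had been picked in an earlier scan of these fold changes as common in the 3′ UTRs of genes that were higher with si-NRDE2-2. Only the basic transcript set of GENCODE release 29 was searched. In it, the MET transcript with the longest coding part has a 3′ UTR of only 218 bases and holds 0 copies. The other MET transcript of that set with a 3′ UTR carries one of 2262 bases and holds 2 copies. The sites of MET, on chromosome 7, and the single site of EGFR, also on chromosome 7, are shown on the RNA strand with 30 bases each and with the searched letters in capitals.
MET, 3′ UTR bases 1475 to 1480: actggttttgtcGACGTAaacatttaaagt
MET, 3′ UTR bases 1624 to 1630: atgattttcaatGACTGTAaattgcgataa
EGFR, 3′ UTR bases 1257 to 1263: acaggtgcgaatGACAGTAgcattatgagt

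Only the RNA strand was searched, and the 3 sequences do not overlap each other. With the longest 3′ UTR of each gene in the basic set, 3 of the 10 receptors held a copy: MET with 2, and EGFR and FGFR1 with 1 each. AXL, ERBB2, ERBB3, EPHA2, PDGFRB, IGF1R and INSR held 0 copies, although IGF1R has a 3′ UTR of 7088 bases and INSR one of 4801. A copy was present in 20.0% of 11107 tested genes with a 3′ UTR and in 25.5% of the 891 whose 3′ UTR was 2000 to 2500 bases long, the range that holds MET. Among 71 genes that were called and at least 2-fold higher, 63.4% held a copy, and 62.9% without MET. These shares rest on the fold changes the sequences were picked from and are no independent evidence. The table gives 1 value per gene, so which 3′ UTR the MET mRNA of these cells carried is not known from it. Only 1 siRNA against NRDE2 was used, and the part of such sites in the MET value was not tested.

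VIM, the mesenchymal filament gene, was between 1112.55 and 1259.82 FPKM over the 6 libraries, and the oestrogen receptor gene ESR1 was at or below 0.00356 FPKM. Of the 6 luminal or epithelial markers, PGR, FOXA1 and CDH1 were also below 1 FPKM, whereas EPCAM (8.20 ± 0.367 FPKM in control) and GATA3 (2.09 ± 0.167 FPKM) were measurable, and the 6 summed to 10.5 to 10.9 FPKM in control and 10.04 to 10.6 FPKM in knockdown libraries. Of 4 mesenchymal markers FN1 (0.68 ± 0.05, adjusted p = 2.4e-06) and CD44 (0.26 ± 0.04, adjusted p = 7.9e-04) rose on the log2 scale, where 20.9% of all tested genes rose. VIM (-0.08 ± 0.06) and CAV1 (0.08 ± 0.05) did not pass. The 4 summed to 1562 to 1698 FPKM in control and 1635 to 1671 FPKM in knockdown libraries. Of 4 blood and endothelial markers CD14 rose (0.66 ± 0.10, adjusted p = 4.9e-04), the other 3 did not pass the filter, and the 4 summed to 1.89 to 2.47 FPKM in control and 3.34 to 3.66 FPKM in knockdown libraries. The part of these markers in the receptor values was not tested. The level of NRDE2 went from 4.21 ± 0.358 to 0.231 ± 0.00270 FPKM (SD, n = 3 per group), and every library matched its label. Estimated depth was 41500000 to 57100000 fragments per library. FPKM divides the fragments of a gene by its transcript length and by the size of the library, to make levels of genes comparable. The transcript lengths behind these values are not known. The orders and shares of receptors below are therefore those of the listed FPKM, and may differ from those of the transcripts.

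In control cells the receptors spanned more than 2 orders of magnitude on the FPKM scale. AXL, the receptor for GAS6, led with 195 ± 1.28 FPKM, above 97.2% of tested genes, and the ephrin receptor gene EPHA2 followed with 106 ± 1.76 FPKM. EGFR stood at 36.0 ± 3.69 FPKM and FGFR1, a receptor for fibroblast growth factors, at 25.8 ± 0.479 FPKM. The control values of each of these 4 genes did not overlap those of its neighbours in the order. They were also the 4 highest by FPKM among all 58 human receptor tyrosine kinases in the table.

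The other 6 receptors were lower in control cells. MET (13.0 ± 0.663 FPKM) and ERBB2 (12.8 ± 0.166 FPKM) overlapped, as did the insulin receptor gene INSR (3.25 ± 0.169 FPKM) and the insulin-like growth factor receptor gene IGF1R (3.17 ± 0.227 FPKM). ERBB3, the neuregulin receptor with little kinase activity of its own, was at 1.81 ± 0.180 FPKM. PDGFRB, best known from mesenchymal and perivascular cells, was lowest at 1.17 ± 0.0524 FPKM, a level above that of only 2.43% of tested genes. All 10 passed the filter of at least 1 FPKM in at least 3 libraries. PDGFRB still rested on an estimated 323 fragments in its poorest library, and MET on 2910.

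**Figure D1:**
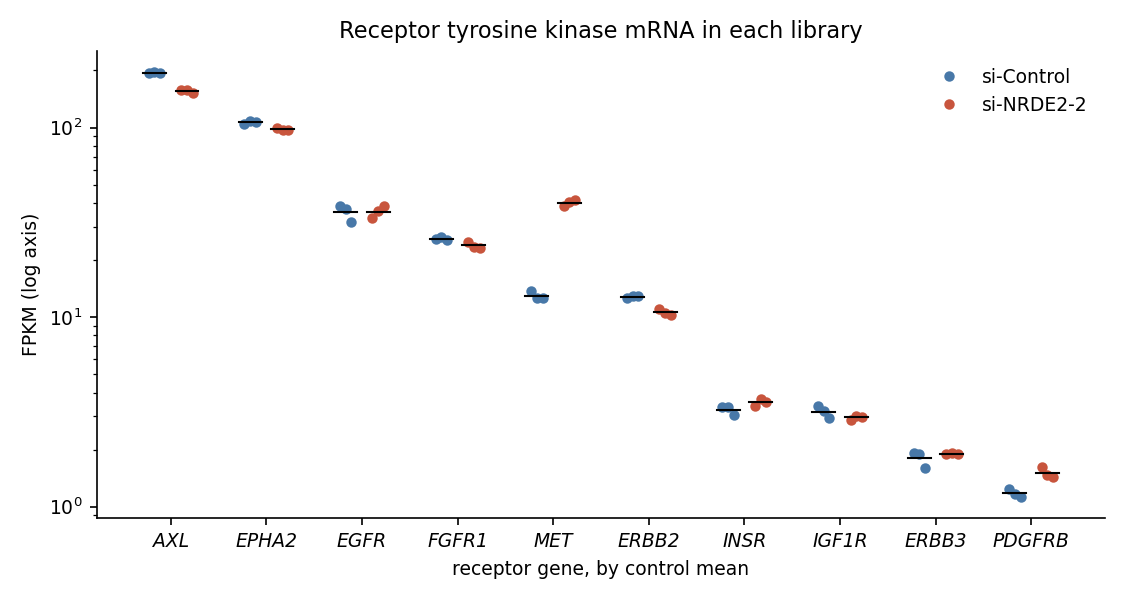
FPKM of the 10 receptor genes in each of the 6 libraries (points, log axis) with the group mean as a black line, ordered by the si-Control mean. MET goes from 13.0 to 40.2 FPKM and passes FGFR1 and EGFR, while the means of the other 9 genes are 0.798 to 1.28 times those of si-Control.

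MET was the receptor with by far the largest difference. It measured 13.7, 12.6 and 12.6 FPKM in the control libraries and 38.5, 40.4 and 41.6 FPKM in the knockdown libraries. The groups lay far apart, with every si-NRDE2-2 library more than 2-fold above every control library. The mean was 3.10 times the control mean, a log2 fold change of 1.62 ± 0.05 (SE) on the log2(FPKM + 0.1) scale, and MET had the rank of 8 among 11782 tested genes ordered by their rise. It was 1 of 73 genes that were called and at least 2-fold higher (0.620% of those tested), which is how it came onto the list. In bulk RNA, more cells with the transcript and more transcript per cell cannot be told apart.

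The order of the receptors changed with MET. Its mean of 40.2 ± 1.56 FPKM put it in the third place of the 10 and of all 58 receptor kinases, where it had held the fifth and the seventh in control cells. The step above EGFR was narrow, since the lowest MET value with si-NRDE2-2 was 38.5 FPKM and the highest EGFR value 38.4 FPKM. As a share of the summed FPKM of the 10 receptors, MET went from 3.25% ± 0.166 to 10.7% ± 0.425 (SD, n = 3 per group), while AXL went from 49.0% ± 0.554 to 41.6% ± 0.591. The sum itself was 398 ± 5.02 FPKM in control and 374 ± 1.08 FPKM in si-NRDE2-2 libraries. The means of AXL, EPHA2, ERBB2, FGFR1 and IGF1R were lower with si-NRDE2-2, and those of MET and the remaining receptors were higher.

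**Figure D2:**
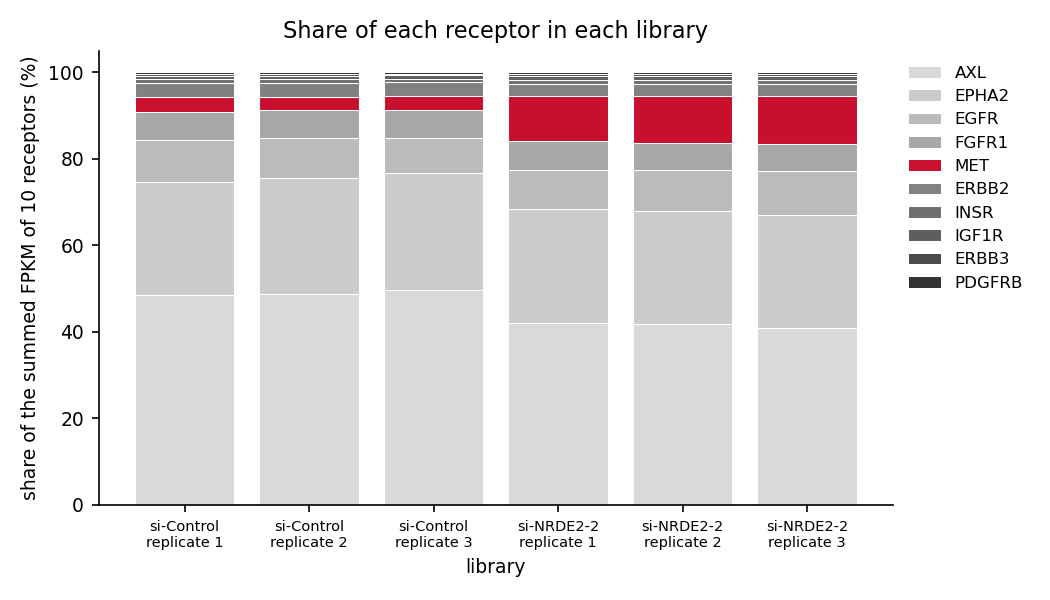
Share of each receptor in the summed FPKM of the 10 (%), one bar per library, with MET in red. MET holds 3.12% to 3.44% of the sum in si-Control libraries and 10.3% to 11.1% in si-NRDE2-2 libraries.

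Of the 10 receptors, 5 were past an adjusted p of 0.05 by limma, 2 higher (MET and PDGFRB) and 3 lower (AXL, ERBB2 and EPHA2), where 44.0% of all tested genes were called, 20.9% higher and 23.0% lower. The groups did not overlap for 7 of the 10, against 53.5% of tested genes. Nothing is read from these counts, since the list was made with this comparison known. The median log2 fold change of the 10 was -0.05, beside -0.02 for all tested genes.

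AXL was the receptor most reduced. It read 194, 196 and 195 FPKM with control siRNA and 157, 157 and 153 FPKM after knockdown. Replicates of a group were within a few FPKM of each other and the groups stood well apart. The si-NRDE2-2 mean was 0.798 times the control mean (log2 fold change -0.33 ± 0.04). Even so, AXL kept the highest FPKM of the 58 receptor kinases.

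Of the 3 listed ERBB genes, only ERBB2 had groups that did not overlap. EGFR, the receptor for EGF, amphiregulin and transforming growth factor alpha, had values of 38.8, 37.4 and 31.8 FPKM in control against 33.5, 36.3 and 38.4 FPKM in knockdown libraries. The 2 sets of values overlapped almost fully (log2 fold change 0.01 ± 0.07), and the sign of this small value turned negative when control replicate 3 (-0.08), knockdown replicate 3 (-0.04) or knockdown replicate 2 (-0.00052) was left out, and with quantile normalization (-0.0086). ERBB2 read 12.6, 12.9 and 12.9 FPKM in control and 11.1, 10.5 and 10.3 FPKM in si-NRDE2-2 libraries, so the groups were separate and the mean was 0.830 times that of control (log2 fold change -0.27 ± 0.05). ERBB3 stood at 1.92, 1.90 and 1.60 FPKM in control and at 1.89, 1.92 and 1.90 FPKM in knockdown libraries. These ERBB3 values overlapped (log2 fold change 0.08 ± 0.09), and with the lowest of them, control replicate 3, left out the difference was -0.01 on the log2 scale.

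EPHA2, which binds membrane-bound ephrin-A ligands on neighbouring cells, was slightly lower. Its values were 105, 108 and 107 FPKM in control and 99.4, 97.6 and 97.4 FPKM in si-NRDE2-2 libraries. The groups did not overlap, and the ratio of means was 0.922 (log2 fold change -0.12 ± 0.04). EPHA2 was no longer called when control replicate 2, knockdown replicate 2 or knockdown replicate 3 was left out, where its log2 fold change was -0.11 in each case. It was not called either without a variance trend or with the replicate number as a block.

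The receptors for platelet-derived, insulin-like and fibroblast growth factors differed by small amounts. PDGFRB read 1.23, 1.16 and 1.13 FPKM in control against 1.61, 1.46 and 1.44 FPKM in knockdown libraries. These values did not overlap (ratio 1.28, log2 fold change 0.33 ± 0.09), and with a pseudocount of 1, which weighs on a gene this low, the log2 fold change was 0.20. FGFR1 read 25.7, 26.3 and 25.4 FPKM in control against 25.0, 23.5 and 23.2 FPKM in knockdown libraries. Its groups did not overlap either, by a margin of less than 1 FPKM, with a log2 fold change of -0.11 ± 0.04, and of the alternatives run it was called lower in 1, with knockdown replicate 1 left out (-0.14).

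The insulin receptor and its close relative differed in opposite directions by small margins. INSR was 3.35, 3.34 and 3.05 FPKM in control and 3.41, 3.68 and 3.58 FPKM with si-NRDE2-2, with no overlap between the groups and a log2 fold change of 0.13 ± 0.07. IGF1R was 3.39, 3.20 and 2.94 FPKM in control and 2.88, 3.02 and 2.98 FPKM with si-NRDE2-2, with overlapping groups and a log2 fold change of -0.10 ± 0.07. IGF1R and INSR overlapped in control libraries, whereas with si-NRDE2-2 every INSR value was above every IGF1R value. With GC and length trends removed INSR was called higher (0.16), where 3297 of 11546 tested genes were. The IGF1R difference was -0.01 there.

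**Figure D3:**
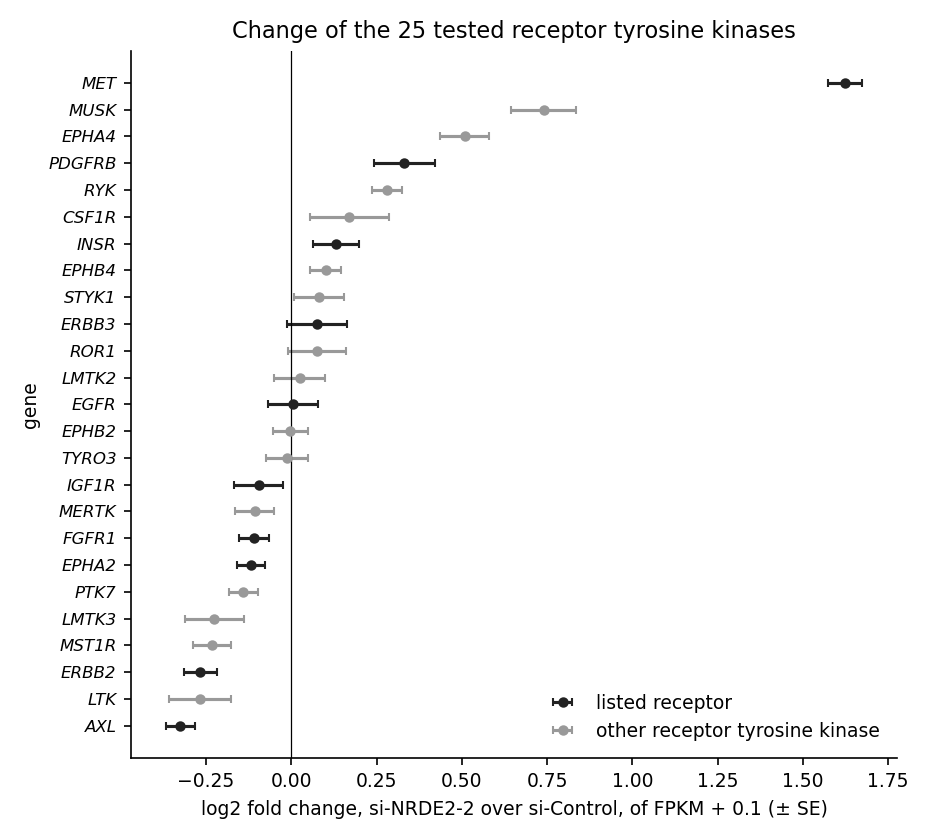
log2 fold change of si-NRDE2-2 over si-Control (± SE, n = 3 libraries per group, on log2(FPKM + 0.1)) for the 25 tested receptor tyrosine kinases, the 10 listed ones in black and 15 others in grey. MET at 1.62 lies more than 2 times as far from 0 as the next gene, MUSK at 0.74, and AXL is at the other end at -0.33.

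The 5 genes whose 6 values followed MET most closely were found among 8467 other tested genes with a mean of at least 5 FPKM, by the root mean square distance of log2 values centred on the control mean. VAMP7, a vesicle fusion gene, was nearest with a distance of 0.0709, followed by BANF1 (0.0866), the Notch ligand gene JAG1 (0.113), H3F3AP4 (0.123) and the calcium-binding protein gene CALU (0.134). VAMP7 went from 5.06 ± 0.130 to 15.2 ± 0.854 FPKM and CALU from 41.8 ± 1.40 to 115 ± 4.71 FPKM. H3F3AP4 is a pseudogene whose reads may belong to its near-identical parent, so its value is uncertain. The longest 3′ UTR held 3 copies of the searched sequences in VAMP7, 1 in BANF1, 1 in JAG1 and 0 in CALU. For H3F3AP4 the basic set held no 3′ UTR to search. A copy was present in 20.0% of 11107 tested genes with a 3′ UTR, and in 63.4% of 71 called and at least 2-fold higher. The genes were picked for following MET, and the sequences came from the same fold changes, so these copies are no independent evidence.

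Beyond the 10 receptors, 48 other receptor tyrosine kinases were listed, of which 15 passed the filter. By limma, 3 of them rose and 3 fell (40.0% of those tested, beside 44.0% of all genes), with a median log2 fold change of 0.02. MUSK, known as the agrin-dependent receptor of the neuromuscular junction, rose from 1.26 ± 0.125 to 2.17 ± 0.150 FPKM (0.74 ± 0.10 on the log2 scale, adjusted p = 1.1e-04). The ephrin receptor gene EPHA4 rose by 0.51 ± 0.07 and the WNT co-receptor gene RYK by 0.28 ± 0.04. MST1R, the RON receptor and nearest relative of MET, fell from 5.38 ± 0.148 to 4.56 ± 0.0357 FPKM (-0.23 ± 0.06, adjusted p = 0.0058), whereas MET was higher.

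The pseudokinase gene PTK7 (-0.14 ± 0.04, adjusted p = 0.0195) and LTK (-0.27 ± 0.09, adjusted p = 0.0335) also fell. Their calls were less firm. PTK7 was not called when control replicate 2, knockdown replicate 2 or knockdown replicate 3 was left out (adjusted p = 0.0959, 0.0747 and 0.0687) or when libraries were scaled to the same total (0.0516, range 0.0164 to 0.0959 over its alternatives). LTK lost its call when control replicate 1, control replicate 3, knockdown replicate 2 or knockdown replicate 3 was left out (adjusted p = 0.103, 0.0761, 0.129 and 0.0971) and with no filter on low values (0.0700, range 0.00977 to 0.129). With knockdown replicate 2 or 3 left out, 1 gene of the list fell. The relatives of AXL, TYRO3 (3.86 ± 0.134 to 3.83 ± 0.0858 FPKM) and MERTK (6.19 ± 0.280 to 5.74 ± 0.163 FPKM), did not pass the test. The collagen receptor gene DDR1 and INSRR were listed at 0 in every library. So was RPS18, a ribosomal protein gene that every cell uses, so a 0 in this table need not mean that a transcript was absent.

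Among 30 ligands of the 10 receptors, 13 were tested, of which 2 rose and 3 fell (38.5%, beside 44.0% of all tested genes), with a median log2 fold change of 0.04. HGF, the ligand of MET, was listed at 0 in 5 libraries and at 0.0204 FPKM in si-NRDE2-2 replicate 3. GAS6, the ligand of AXL, rose from 80.1 ± 1.21 to 104 ± 4.52 FPKM (0.38 ± 0.05, adjusted p = 6.3e-05), whereas its receptor was lower. Of the EGFR ligands, AREG (amphiregulin) rose from 101 ± 7.88 to 126 ± 3.92 FPKM (0.32 ± 0.06, adjusted p = 0.0011) and EREG (epiregulin) fell from 12.01 ± 0.220 to 10.2 ± 0.619 FPKM (-0.24 ± 0.05, adjusted p = 0.0050). HBEGF (50.9 ± 2.64 to 54.7 ± 1.91 FPKM) and TGFA (17.7 ± 0.0935 to 18.2 ± 0.598 FPKM) did not pass.

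NRG1, the neuregulin that binds ERBB3, fell from 26.4 ± 0.245 to 20.7 ± 0.690 FPKM (-0.35 ± 0.04, adjusted p = 7.6e-05). EFNA1, a ligand of EPHA2, went from 8.44 ± 0.887 to 6.98 ± 0.910 FPKM (-0.27 ± 0.09, adjusted p = 0.0369) with overlapping groups. That call was lost when control replicate 2, control replicate 3, knockdown replicate 2 or knockdown replicate 3 was left out (adjusted p = 0.0645, 0.131, 0.101 and 0.129). It was also lost with no filter on low values, quantile normalization, no variance trend and the replicate block (adjusted p = 0.107, 0.0581, 0.0610 and 0.0580), so in 8 of 14 alternatives (range 0.00726 to 0.131). The other 17 ligands did not pass the filter. Among them were EGF (0.748 ± 0.0730 to 0.867 ± 0.0197 FPKM) and PDGFB (0.600 ± 0.0698 to 0.813 ± 0.0763 FPKM), and IGF1 and INS were listed at 0 throughout.

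Genes that release ligands or assist the receptors moved both ways. Of 24 tested, 11 rose and 7 fell (75.0%, beside 44.0% of all tested genes), with a median of 0.05. The semaphorin receptor gene PLXNB2 fell from 36.9 ± 1.33 to 23.1 ± 1.45 FPKM (-0.67 ± 0.05, adjusted p = 3.0e-06). Its relative PLXNB1, a known partner of MET, rose at a low level, from 1.30 ± 0.0502 to 1.61 ± 0.133 FPKM (0.30 ± 0.09, adjusted p = 0.0203). The PLXNB1 call was lost with control replicate 2 or knockdown replicate 1 left out (adjusted p = 0.0564 and 0.0644, range 0.00144 to 0.0644). NRP1, a co-receptor for several growth factors, rose from 57.03 ± 0.716 to 81.5 ± 4.07 FPKM (0.51 ± 0.05), and the syndecan gene SDC2 rose by 0.50 ± 0.06.

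Genes of ligand and receptor shedding did not share a direction. ADAM10, a protease that cuts ligands and receptors from the cell surface, rose from 44.02 ± 0.898 to 58.4 ± 3.79 FPKM (0.40 ± 0.05, adjusted p = 1.0e-04), and RHBDF2, which brings the related protease ADAM17 to the surface, rose by 0.36 ± 0.04. RHBDF1, a relative of RHBDF2 with a similar role, fell from 20.8 ± 0.933 to 17.2 ± 0.996 FPKM (-0.28 ± 0.05, adjusted p = 0.0019). ADAM17 itself did not pass (23.7 ± 0.321 to 24.0 ± 0.898 FPKM). TIMP3, an inhibitor of both proteases, rose from 81.01 ± 1.84 to 115.03 ± 2.63 FPKM (0.51 ± 0.04, adjusted p = 5.3e-06). The endocytic receptor gene LRP1 fell by 0.57 ± 0.08. PLAU, the urokinase gene, whose product can activate HGF, rose from 238 ± 5.38 to 277 ± 8.08 FPKM (0.22 ± 0.05, adjusted p = 0.0036). The activating protease gene ST14 fell at a level close to the filter, from 1.29 ± 0.133 to 1.02 ± 0.0223 FPKM (-0.32 ± 0.10). The activation inhibitor gene SPINT1 fell from 7.72 ± 0.797 to 6.06 ± 0.647 FPKM (-0.34 ± 0.09), and the related inhibitor gene SPINT2, at 181 ± 13.5 FPKM in control, did not pass. ST14 was not called with control replicate 2 or knockdown replicate 2 left out (adjusted p = 0.112 and 0.0680, range 0.00674 to 0.112). ST14, SPINT1, SPINT2, PLAU, RHBDF1, PLXNB1 and ADAM17 are named here after their values were seen.

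Adaptors and proximal effectors moved both ways. Of 31 tested, 9 rose and 9 fell (58.1%, beside 44.0% of all tested genes), with a median of -0.01. CRK, an adaptor that couples MET-bound GAB1 to cell migration signals, rose from 16.6 ± 0.450 to 32.4 ± 1.57 FPKM (0.96 ± 0.05, adjusted p = 1.3e-07), the largest change of the list. The RAS exchange factor gene SOS2 rose by 0.34 ± 0.06 and RASA1, which switches RAS off, rose by 0.31 ± 0.05. PLCG1, the phospholipase recruited by many of these receptors, fell by 0.39 ± 0.06 and STAT3 fell by 0.23 ± 0.04. The number that fell was smaller in several alternatives. It was 4 with control replicate 1, control replicate 2 or knockdown replicate 2 left out. It was 5 with knockdown replicate 3 left out or with libraries scaled to the same total. With control replicate 3 left out it was 9, and with knockdown replicate 1 left out it was 8. The cause of these differences was not tested.

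Among inhibitors of the receptors and genes of their degradation, 11 of 29 tested rose and 7 fell (62.1%, beside 44.0% of all tested genes), with a median of 0.12. PTPN1, which encodes the phosphatase PTP1B that acts on INSR, EGFR and MET, rose from 21.9 ± 0.103 to 47.7 ± 0.541 FPKM (1.12 ± 0.04, adjusted p = 9.9e-09). LRIG1, a membrane protein known to lower ERBB receptors and MET, rose from 7.15 ± 0.0854 to 11.6 ± 0.203 FPKM (0.69 ± 0.05, adjusted p = 1.3e-06), and its family member LRIG3, named after its values were seen, fell by 0.34 ± 0.06. The EGFR-directed SOCS5 rose by 0.65 ± 0.07, GRB10, an adaptor that restrains the insulin receptors, rose by 0.53 ± 0.04, and SH3KBP1, which links CBL to endocytosis, rose by 0.36 ± 0.04. TNS3 rose by 0.29 ± 0.04.

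Of the 2 ubiquitin ligase genes best known for degrading MET and EGFR, neither CBL (8.52 ± 1.30 to 9.24 ± 0.302 FPKM) nor CBLB (6.12 ± 0.279 to 5.64 ± 0.139 FPKM) passed, and both are named after their values were seen. In this list 4 genes fell with control replicate 2 left out and 3 with knockdown replicate 2 left out. Of the 36 genes that rose in all 5 lists together 12 held a searched 3′ UTR sequence (33.3%), as did 8 of the 29 that fell (27.6%) and 13 of the 47 that did not pass (27.7%). The share was 20.0% of 11107 tested genes with a 3′ UTR. These shares are not matched for 3′ UTR length. They rest on the fold changes the sequences were picked from and are no independent evidence. PTPN1 and RASA1 held 2 copies each, GRB10 held 4, and NRP1, SDC2, SOCS5 and PLXNB1 held 1 each. CRK, MUSK, LRIG1, EPHA4, ADAM10, GAS6, RHBDF2, SH3KBP1, TNS3, RYK, AREG, PLAU and SOS2, which also rose, held 0. Of the named list genes that fell, PLXNB2 held 2, NRG1 and EREG held 1 each, and the others held 0. Over the 5 lists, the 29 that fell became 17 with control replicate 2 left out and 15 with knockdown replicate 2 left out.

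**Figure D4:**
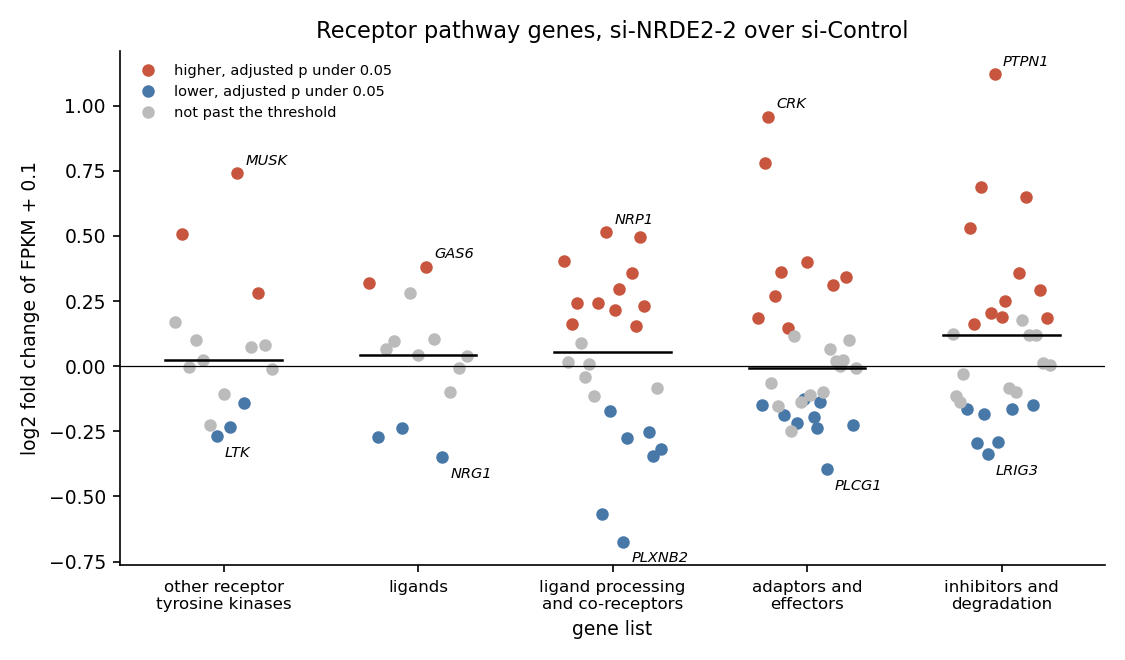
log2 fold change (on log2(FPKM + 0.1)) of each tested gene in the 5 lists of receptor pathway genes, coloured by limma's call, with the list median as a black line and the highest and lowest gene named. Each list holds genes in both directions, and PTPN1 at 1.12 and CRK at 0.96 are the highest.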

How the data were processed

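The authors deposited 1 table of FPKM values per gene for 6 libraries. hg19, DESeq2 1.10.1 and STAR 2.5.1b are named, without a role, per the submitters' processing notes. The program and annotation behind the FPKM values are not given in the sources used here. Columns were matched to samples by the labels' descriptions, and 4 further columns with values in few rows were not used. Library depth comes from the step size of low FPKM values (54.7% of 2202 low genes had whole multiples within 0.02) and from GENCODE transcript lengths (lower and upper quartile for si-Control replicate 1 of 47800000 and 57600000 fragments).

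Tested were 11782 genes that reached 1 FPKM in 3 or more libraries, without small RNAs. The test was that of limma 3.58.1 (R 4.3.3) on log2(FPKM + 0.1) (trended, robust prior variance, 2 groups, no other term) with Benjamini-Hochberg adjustment over all genes, and every adjusted p in the text is from it. A log2 fold change understates the change of low genes. The members, lists and filter were chosen with earlier results of these data known. Named genes are the 10 receptors, NRDE2, HGF, GAS6, TIMP3, up to 6 called genes per list by smallest adjusted p and the 5 genes nearest to MET; any other is a list member given beside a relative or ligand after its values were seen. Of the list genes that this rule names, 1 is not reported here. The 3′ UTRs are those of the basic transcript set of GENCODE release 29 (GRCh38), used for sequence only. Alternatives were another pseudocount, filter, scaling, variance prior, replicate block, each library left out and, added after the data were seen, removal of GC and length trends.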

Additional observations from a re-analysis of the deposited data

How the results depend on the processing

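The MET log2 fold change ran from 1.56 to 1.67 over its 14 alternatives, and AXL (-0.33 to -0.30), ERBB2 (-0.30 to -0.22), EPHA2 (-0.16 to -0.07), PDGFRB (0.20 to 0.38), INSR (0.09 to 0.16), FGFR1 (-0.14 to -0.08) and IGF1R (-0.15 to -0.01) kept their sign in every alternative that tested them. EGFR (-0.08 to 0.06) and ERBB3 (-0.01 to 0.12) did not. With a mean of at least 5 FPKM, 1 receptor was called higher in place of 2, since PDGFRB was not tested there. The number of pathway genes that fell (29) ran from 15 to 27 when single libraries were left out. It was 27 without control replicate 3 or knockdown replicate 1, 17 without control replicate 2 and 15 without knockdown replicate 2. Each of these fits has a library fewer, and the cause of the differences was not tested. With no filter on low values 6 other receptor kinases and 5 ligands rose, in place of 3 and 2, since more genes were tested. Replicate numbers did not pair the samples: the correlations of deviations between same-numbered libraries were -0.12, 0.11 and -0.12, and libraries did not all correlate best with their own number. With the replicate block 35 pathway genes rose and 22 fell, 2 receptors were called higher and 2 lower, and 2252 genes rose and 2431 fell of all tested, beside 2465 and 2715 without it. After removal of GC and length trends these were 3297 and 3125, of 11546 genes tested there. Depth limits the low receptors: the counting error of PDGFRB was about 5.56% in its poorest library.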
